A study of Homo sapiens with 6 samples.

Results

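MHC class II molecules are pairs of an alpha and a beta chain (HLA-DR, HLA-DQ and HLA-DP) that show peptides from endosomes to CD4+ T cells. Their partners are the invariant chain CD74, which fills the peptide groove during transport, and the HLA-DM heterodimer (HLA-DMA and HLA-DMB), which exchanges a fragment of CD74 for peptide. CIITA is the master coactivator of this gene family: it does not bind DNA itself, but docks on RFX, NF-Y and CREB factors that sit on the X and Y boxes of the promoters. Human NK and T cells, unlike most mouse T cells, can carry HLA-DR on the surface after activation.

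The set described here holds 10 genes, CIITA, CD74, HLA-DRA, HLA-DRB1, HLA-DPA1, HLA-DPB1, HLA-DQA1, HLA-DQB1, HLA-DMA and HLA-DMB, chosen by symbol from a count table of 36601 genes. Each had 1 row in the table, and 8 of the 10 were among the 12263 genes with more than 1 CPM (counts scaled to the library total) in at least 2 libraries, which were tested. RNA came from NK92 cells, an established human NK lymphoma line dependent on IL-2, with a stable shRNA control (shCtrl, n = 3) or a stable shRNA against the lncRNA miR155HG (shmiR155HG, n = 3). All 6 libraries, controls included, were from cells held for 12 h with IL-12 at 10 ng/mL and IL-2 at 1000 U/mL, so no library shows unstimulated cells. Whether the libraries of a group came from separate transductions or cultures is not given, and p-values measure only the spread between these libraries. The treatment field of shmiR155HG replicates 2 and 3 carries other numbers in the gene's name, and their titles, which read shmiR155HG, were used.

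Total counts lay between 33454786 and 39157264 per library. MIR155HG, the target of the shRNA, was at 1.77 ± 0.154 CPM (SD, n = 3) in shCtrl and 0.509 ± 0.215 CPM (SD, n = 3) in shmiR155HG cells. All 9 NK cell markers on a fixed list passed the filter (2 lower, PRF1 and NCR3, and none higher), and NKG7 was at 676.6 CPM in shCtrl cells. Markers of cells that normally carry class II were mostly near 0: of 7 B cell markers 6 did not pass the filter, with MS4A1, CD79B, CD22 and BLK at group means of 0.0685 CPM or lower and only PAX5 tested. Of 8 monocyte and dendritic cell markers 2 passed (CSF1R and ITGAX), and FCER1A, CLEC9A and CLEC10A were at 0 in all libraries. Of 8 T cell markers 2 passed (CD3E and TRAC), neither of them called. Of the markers of these other cell types, PAX5 was called higher and ITGAX lower, and CD14, below the filter, had 7, 2 and 0 counts in shCtrl and 10, 23 and 17 in shmiR155HG libraries, with no overlap. The summed level of the B cell list was 229.1 to 264.2 CPM in shCtrl and 340.5 to 343.7 CPM in shmiR155HG libraries, nearly all of it PAX5. That of the monocyte and dendritic cell list, mostly ITGAX, was 127.5 to 143.2 and 102.3 to 108.1 CPM. Their part in the results that follow was not tested.

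The promoters are shown first, because the shared X and Y boxes are what ties these genes to CIITA. The RefSeq table (GRCh38.p14, 250 bases before to 50 after a start site) holds 9 windows for 8 of the 10 genes. CIITA and HLA-DRA have no entry. The stretches below have 60 bases, with the second part of the X box (letters ACNGATG), its first part (CCTAGNNAC) and the Y box (CTGATTGG, or its core ATTGG on either strand) in capitals. All are on the minus strand of the chromosome and are written 5′ to 3′ along the gene. HLA-DRB5, a close paralog of HLA-DRB1 from outside the 10 genes, is included because the pair differed in the comparison of the groups.
HLA-DRB1 (chr6:32589876-32589935): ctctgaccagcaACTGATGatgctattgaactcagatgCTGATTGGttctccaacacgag
HLA-DRB5 (chr6:32530359-32530418): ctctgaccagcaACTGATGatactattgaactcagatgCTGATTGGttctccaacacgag
HLA-DQB1 (chr6:32666727-32666786): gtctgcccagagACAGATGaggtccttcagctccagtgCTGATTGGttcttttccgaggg
HLA-DMA (chr6:32953159-32953218): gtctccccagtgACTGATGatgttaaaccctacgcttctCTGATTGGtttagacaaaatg
HLA-DMB (chr6:32941065-32941124): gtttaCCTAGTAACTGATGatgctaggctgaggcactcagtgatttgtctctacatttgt
CD74 (chr5:150412939-150412998): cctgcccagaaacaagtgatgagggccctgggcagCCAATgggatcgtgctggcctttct

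In HLA-DRB1, HLA-DRB5 and HLA-DQB1 the X box part and the Y box lay 19 bases apart, and in HLA-DMA 20 bases. This order with a gap of at most 30 bases, a pattern chosen after the sequences were seen, was found in 9 of 35116 windows of the table (0.0256%). Besides HLA-DRB1, HLA-DRB5, HLA-DQB1 and HLA-DMA, the genes with it were ATF7IP, NFE2L1, NFE2L1-DT, PCDHB9 and SPDYE4, none of them a class II gene. The HLA-DRB1 and HLA-DRB5 stretches differ at 1 of 60 bases, and over the 256 bases that the windows share without gaps, 89.1% were the same. Searched on both strands, ATTGG was in 7 of the 9 member windows and 34.6% of all windows, CTGATTGG, which contains it, in 3 and 3.97%, and ACNGATG in 5 and 7.65%. CCTAGNNAC, whose end overlaps ACNGATG in HLA-DMB, was in 1 of the 9 and 3.08% of all, and TTCNNNGAA, the interferon-gamma activated site, in 1 (HLA-DQA1) and 7.66%. A match describes letters only. The windows follow RefSeq start sites, and neither window of HLA-DPA1 held any of these motifs.

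In these NK92 cells, CIITA had the highest level per kilobase of the 10 genes, HLA-DRA was at or near 0, and CD74 was the only gene of the 8 tested that was called. CIITA, on the plus strand of chromosome 16 from 10866222 to 10943021 (hg38), had 56.4, 60.6 and 58.6 CPM in the shCtrl libraries, in replicate order, and 58.0, 58.9 and 60.7 CPM in the shmiR155HG libraries. The groups overlapped, with means of 58.5 ± 2.14 and 59.2 ± 1.36 CPM (SD, n = 3 each). The log2 fold change (shmiR155HG over shCtrl) was 0.017 (SE 0.063, 95% interval −0.11 to 0.14, adjusted p = 0.904 by edgeR), so the interval of the ratio ran from 0.925 to 1.11. DEXI, which had 3057 counts over the 6 libraries, overlaps CIITA on the opposite strand, and the use of strand in counting is not stated. The genes whose profile over the 6 libraries lay nearest to that of CIITA, out of 9720 genes averaging 5 CPM or more, were EIF3J, PRAF2 and NAT10. Their root mean square difference from CIITA was 0.016, 0.017 and 0.017 on the log2 scale.

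**Figure D1:**
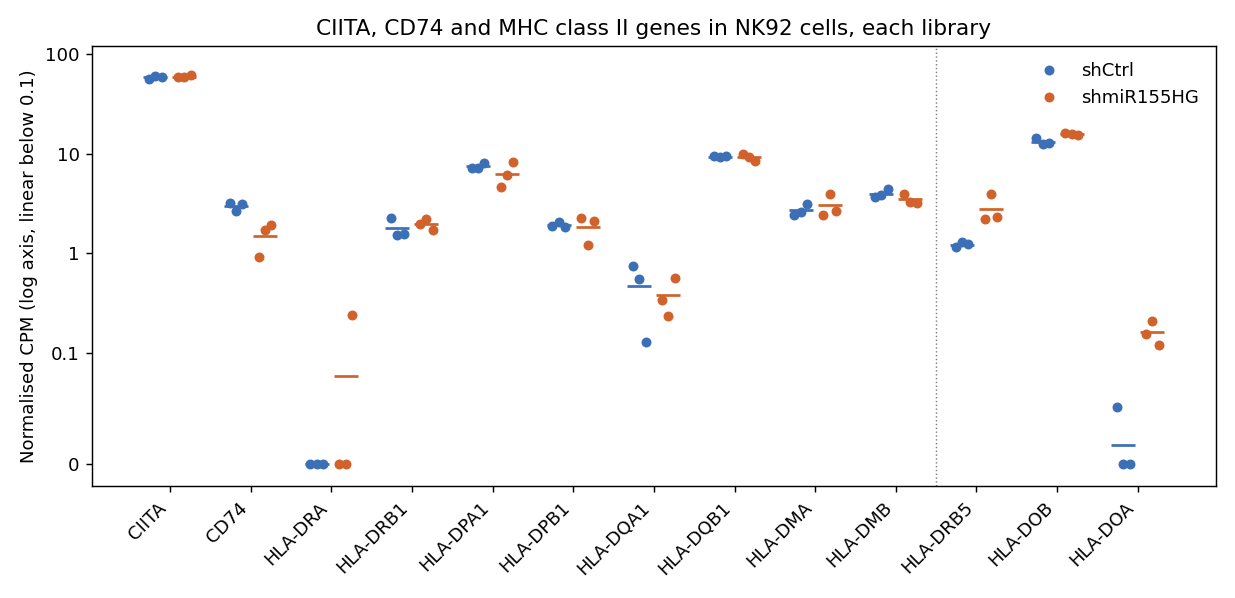
Normalised CPM (log axis, linear below 0.1) of the 10 genes and, right of the dotted line, HLA-DRB5, HLA-DOB and HLA-DOA, with 1 point per library and a line at the group mean (shCtrl blue, shmiR155HG orange). CIITA lies near 60 CPM in all libraries, HLA-DRA is at 0 in 5 of 6, and CD74 and HLA-DRB5 separate the groups in opposite directions.

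Levels of different genes were compared per kilobase of the longest annotated transcript, as means over the 6 libraries. CIITA stood first of the 10 at 3.66 CPM per kb, and its lowest library (3.51) was above the highest library of every other member. This level was at percentile 31.4 of the 12216 tested genes with an annotated length. The percentile rests on a longest CIITA transcript of 16061 bases, against a median of 1843, and none was computed with median lengths. HLA-DQB1 (1.99 CPM per kb), HLA-DMA (1.65) and HLA-DPA1 (1.37) followed, and then HLA-DRB1 (0.837), HLA-DMB (0.816), CD74 (0.733) and HLA-DPB1 (0.472). Neighbours in this order, from HLA-DQB1 to HLA-DPB1, overlapped in their ranges over libraries and were not separated. HLA-DQA1 (0.078 CPM per kb) and HLA-DRA (0.032) came last, below the lowest library of HLA-DPB1 (0.302). With the median transcript length in its place, CIITA (31.9 CPM per kb) and HLA-DQB1 (6.15) stayed first and second and HLA-DRA last, while HLA-DRB1 moved from rank 5 to rank 8. For comparison, B2M, the light chain of the class I molecule, was at 628.8 CPM per kb of the longest transcript.

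The alpha chains were uneven. HLA-DRA, the nearly invariant partner of all DR beta chains (chromosome 6, 32439878 to 32445046), had 0 counts in every shCtrl library and 0, 0 and 8 counts in shmiR155HG replicates 1, 2 and 3. A count of 0 allows up to 3 counts, or 0.0769 to 0.0821 CPM in the shCtrl libraries, for counting error only. The groups overlapped at 0, and no fold is given. HLA-DRB1 and HLA-DRB5 were counted in the same libraries in which HLA-DRA was at 0. Genes known to be broadly expressed, IFNGR2 and CTSL, were also listed at 0 in all 6 libraries, and whether such entries reflect absent RNA or reads not assigned in counting was not tested. HLA-DQA1 (32628179 to 32647062) had 29, 20 and 5 counts in the shCtrl and 13, 9 and 19 counts in the shmiR155HG libraries. These 2 genes did not pass the filter, and without it the adjusted p of HLA-DQA1 was 0.886.

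CD74, the invariant chain, was the 1 gene of the set that was called. It lies on the minus strand of chromosome 5 from 150401637 to 150412969, apart from the MHC. The 3 shCtrl libraries held 125, 96 and 121 CD74 counts and the 3 shmiR155HG libraries 35, 65 and 64, and each shmiR155HG library was below each shCtrl library. Normalised levels were 2.98 ± 0.309 CPM (SD, n = 3) in shCtrl and 1.51 ± 0.528 CPM (SD, n = 3) in shmiR155HG cells. The fit put the shmiR155HG level at 50.6% of the control, or −0.98 on the log2 scale (SE 0.33, 95% interval −1.66 to −0.31, adjusted p = 0.0409 by edgeR). In bulk RNA, fewer cells with the transcript and less of it per cell cannot be told apart. The call was lost when any 1 library other than shmiR155HG replicate 3 was left out. Over all fits with 1 library left out, whether the call was kept or lost, log2 fold changes ran from −1.18 to −0.72. Adjusted p-values by edgeR reached 0.174 (without shmiR155HG replicate 1).

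Of the 8 genes tested, 1 was thus called lower, against 8.02% of all genes tested, and 0 were called higher, against 7.26%. A single lower gene among 8 is close to that background. The quasi-likelihood test, the exact test of edgeR, DESeq2 and limma-voom each gave 0 genes higher and 1 lower at an unadjusted p under 0.05. CD74 was also the only 1 of the 8 whose groups did not overlap, against 30.8% of all genes tested. The median log2 fold change was −0.044 over the 8 genes and 0.00097 over all genes.

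**Figure D2:**
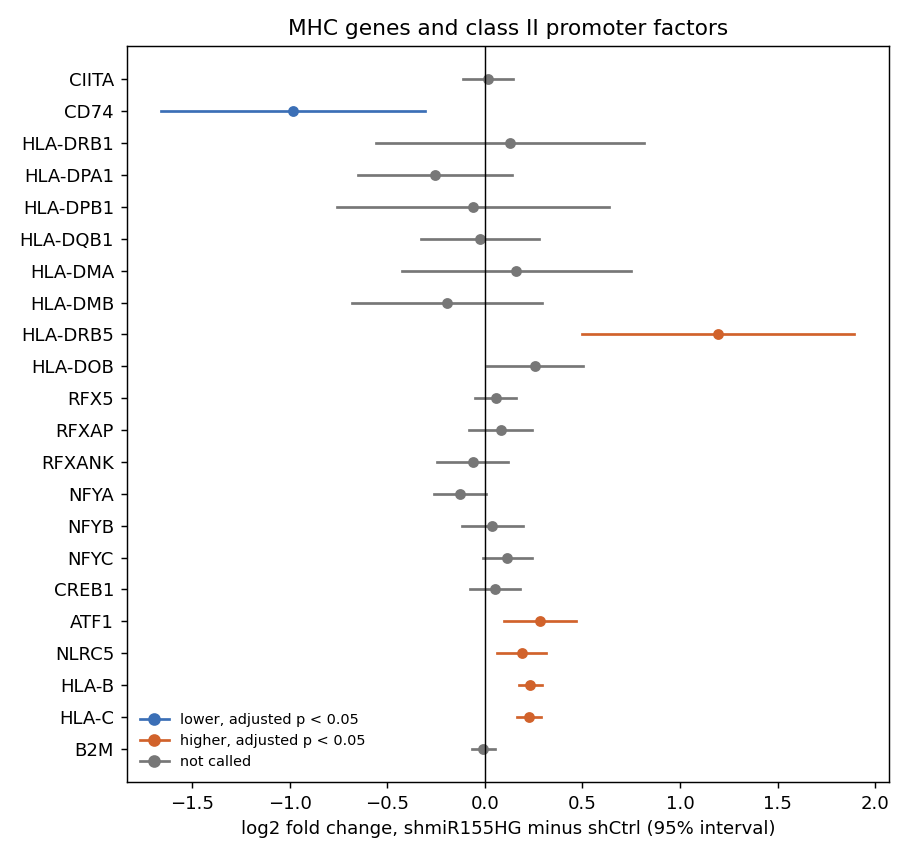
Log2 fold changes (x axis, shmiR155HG minus shCtrl, n = 3 each) as points with 95% intervals for the 8 tested members, HLA-DRB5, HLA-DOB, the promoter factors and class I genes, coloured by call at an adjusted p under 0.05. CD74 lies at −0.98 and HLA-DRB5 at 1.197, and the intervals of the other members include 0.

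The classical beta chains and HLA-DPA1 were not called. HLA-DQB1 (32659467 to 32668383) had 366, 335 and 367 counts in shCtrl and 379, 352 and 280 in shmiR155HG libraries (log2 fold change −0.026, SE 0.15, adjusted p = 0.940), and the interval of its ratio, 0.796 to 1.21, was the narrowest after that of CIITA. HLA-DPA1 (33064569 to 33080775) had 281, 263 and 316 counts in shCtrl libraries and 179, 232 and 273 in shmiR155HG libraries. Its shmiR155HG replicate 3 lay above all shCtrl libraries after scaling (log2 fold change −0.26, SE 0.19, adjusted p = 0.425). HLA-DPB1 (33075990 to 33089696), which overlaps HLA-DPA1 head to head over 4786 bases on the opposite strand, had 73, 75 and 72 counts against 86, 46 and 70. For HLA-DPB1 the interval of the ratio, 0.590 to 1.56, left room for changes in either direction. The ratio of HLA-DPA1 to HLA-DPB1 counts was 3.85, 3.51 and 4.39 in shCtrl and 2.08, 5.04 and 3.90 in shmiR155HG replicates 1, 2 and 3 (exact permutation test, two-sided, p = 0.9). The ratio of HLA-DQA1 to HLA-DQB1 was between 0.014 and 0.079 in all libraries (exact permutation test, p = 1).

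Neither chain of the peptide exchange factor HLA-DM was called. HLA-DMB (32934629 to 32941028) had 143, 142 and 171 counts in shCtrl and 152, 125 and 107 in shmiR155HG libraries (log2 fold change −0.19, SE 0.24, adjusted p = 0.661). HLA-DMA (32948613 to 32969094) had 94, 95 and 121 counts in shCtrl and 93, 151 and 90 in shmiR155HG libraries, the highest in shmiR155HG replicate 2 (log2 fold change 0.16, SE 0.29, adjusted p = 0.775, and −0.083 without that library). The ratio of HLA-DMA to HLA-DMB was 0.657 to 0.708 in shCtrl libraries and 0.612, 1.21 and 0.841 in shmiR155HG replicates 1, 2 and 3 (exact permutation test, two-sided, p = 0.4). HLA-DMA shares 501 bases with BRD2, a gene on the opposite strand with 111768 counts in all, so that part of its counts may belong to BRD2.

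HLA-DRB1 and HLA-DRB5, whose promoter stretches above are nearly the same, gave different calls. HLA-DRB1 (32577902 to 32589848) had 89, 56 and 61 counts in shCtrl and 75, 85 and 57 in shmiR155HG libraries, and the groups overlapped (log2 fold change 0.13, SE 0.34, adjusted p = 0.851). HLA-DRB5 (32517353 to 32530287) had 45, 47 and 48 counts in shCtrl and 85, 149 and 77 in shmiR155HG libraries, with no overlap. Its level rose 2.29-fold, from 1.22 ± 0.0661 to 2.81 ± 0.956 CPM (SD, n = 3 each), or 1.197 on the log2 scale (SE 0.34, adjusted p = 0.0154). This call was lost without shCtrl replicate 1 (adjusted p = 0.0508) and without shmiR155HG replicate 2, the highest library (0.88, adjusted p = 0.150). The ratio of HLA-DRB5 to HLA-DRB1, chosen after the values were seen, was 0.506, 0.839 and 0.787 in shCtrl and 1.13, 1.75 and 1.35 in shmiR155HG libraries. Each shmiR155HG ratio was above each shCtrl ratio (difference of 1.002 on the log2 scale, two-sided exact permutation p = 0.1, the smallest that 3 against 3 allow, and 0.25 adjusted over 5 ratios). Reads of these paralogs can be exchanged in counting. Summed, the pair was at 3.02 ± 0.366 CPM in shCtrl and 4.77 ± 1.19 CPM in shmiR155HG cells (SD, n = 3 each), with a log2 fold change of 0.66 (SE 0.24) and an adjusted p of 0.0674.

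**Figure D3:**
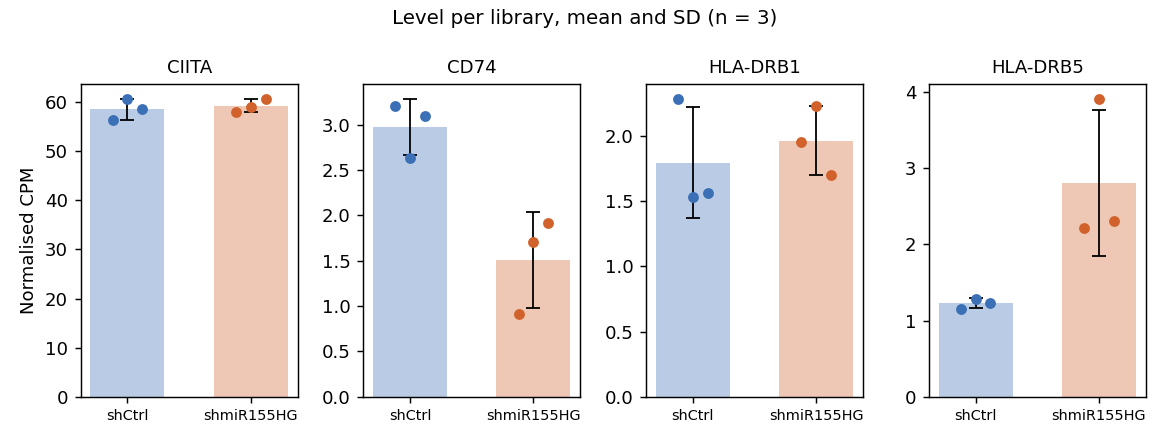
Normalised CPM (y axes from 0, a scale for each gene) of CIITA, CD74, HLA-DRB1 and HLA-DRB5, with bars for the group mean, error bars for the SD (n = 3) and points for libraries. CIITA is level between the groups, CD74 is lower and HLA-DRB5 higher in each shmiR155HG library, and HLA-DRB1 overlaps.

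Of the 7 other class II genes on a fixed list, 5 had an entry in the table and 2 passed the filter. HLA-DOB, the beta chain of the HLA-DM inhibitor HLA-DO, had 552, 451 and 496 counts in shCtrl and 612, 595 and 513 in shmiR155HG libraries. At 9.48 CPM per kb of the longest transcript it stood above every one of the 10 genes, while by the median transcript length (10.8) it was below CIITA. Its log2 fold change was 0.26 (SE 0.12, adjusted p = 0.167), with no overlap between groups. It begins 1367 bases past the end of TAP2 on the same strand, and TAP2 was at 456.5 CPM in shCtrl cells. HLA-DOA, the alpha chain of HLA-DO, had 2, 0 and 0 counts in shCtrl and 6, 8 and 4 in shmiR155HG libraries and was below the filter. HLA-DQA2 and HLA-DQB2 were at 0 throughout. Of the 10 class II pseudogenes and antisense RNAs listed, HLA-DQB1-AS1, which overlaps HLA-DQB1 on the opposite strand, had an entry, with at most 13 counts in a library.

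**Figure D4:**
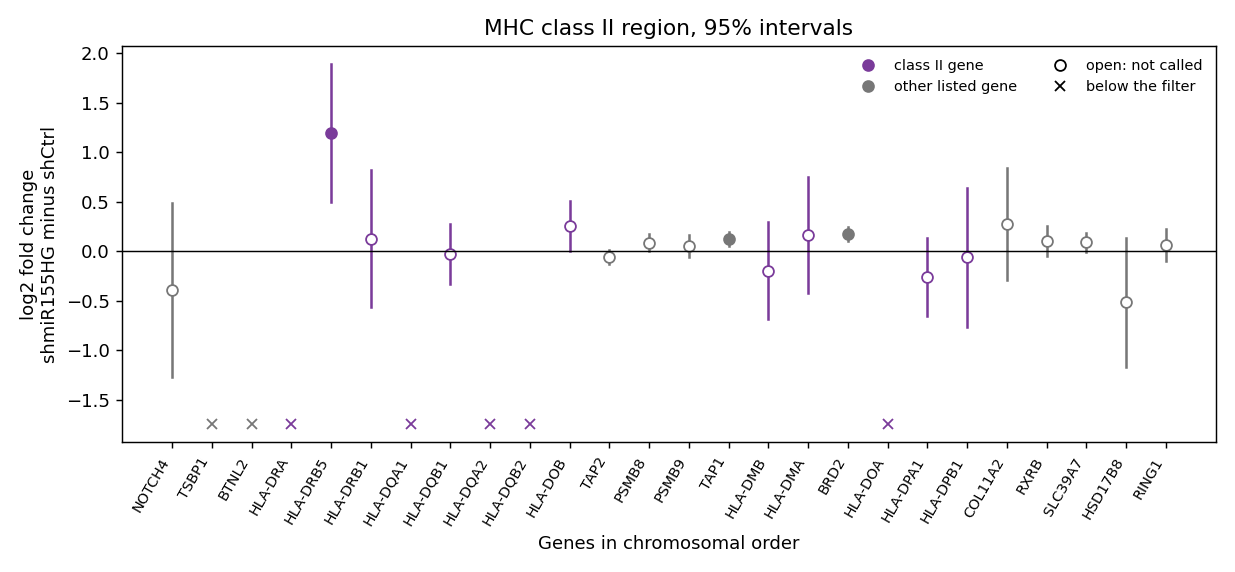
Log2 fold change (y axis, shmiR155HG minus shCtrl) with 95% intervals for listed genes of the class II region on chromosome 6, in chromosomal order, with class II genes in purple, other genes in grey, open points for genes not called and crosses for genes below the filter. HLA-DRB5, TAP1 and BRD2 are the genes called, and HLA-DRB5 stands next to HLA-DRB1, which is not.

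For the other genes of the class II region, the background was 7.26% of all genes tested called higher and 8.02% called lower. Of 13 listed neighbours from NOTCH4 to RING1, 11 were tested, 2 were higher (TAP1, a subunit of the peptide transporter, by 0.13, SE 0.034, adjusted p = 0.00985, and BRD2 by 0.18, SE 0.035, adjusted p = 0.000654) and 0 lower, with a median log2 fold change of 0.088. HSD17B8 (−0.52, 95% interval −1.17 to 0.14), NOTCH4 (−0.39, −1.27 to 0.48) and COL11A2 (0.28, −0.29 to 0.84) had larger estimates with intervals that included 0. The 10 class I and peptide loading genes, of which TAP1 and TAP2 also stand in that region, held 6 that were higher and 0 lower, with a median of 0.13. Among them were HLA-B (log2 fold change 0.23), HLA-C (0.23), HLA-E (0.25), TAP1 and NLRC5. NLRC5 is the class I counterpart of CIITA and rose from 70.1 to 79.8 CPM (log2 fold change 0.19, SE 0.062, adjusted p = 0.0371), a call lost in 7 of 16 alternative settings.

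The factors that hold CIITA at the promoters were all detected, and 7 of 8 were not called. RFX5, RFXAP and RFXANK, the RFX subunits, were at 91.3, 37.9 and 31.5 CPM in shCtrl cells and 94.8, 40.0 and 30.2 CPM in shmiR155HG cells. NFYA, NFYB and NFYC of the NF-Y trimer had log2 fold changes of −0.13, 0.038 and 0.11 (adjusted p = 0.209, 0.802 and 0.239), and CREB1 of 0.050 (adjusted p = 0.668). ATF1, a relative of CREB1, was higher by 0.28 (SE 0.090, adjusted p = 0.0329), a call lost in 5 of 16 alternative settings. The median over the 8 genes was 0.053.

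Upstream of CIITA, 10 of 11 listed genes were tested, with 2 higher, 3 lower and a median of 0.086. IFNG, the classical inducer of CIITA, fell by 0.41 on the log2 scale, and its receptor chain IFNGR1 fell by 0.35 (adjusted p = 1.40e-07 and 0.00307). IRF1, which binds a CIITA promoter, rose by 0.11 (adjusted p = 0.0258), and PRDM1, a repressor of CIITA in plasma cells, rose by 0.28 (adjusted p = 0.0163). The call of IRF1 was lost in 7 and that of PRDM1 in 4 of 16 alternative settings. The interval of the CIITA change, given above, included 0. Of 7 coactivators and chromatin regulators, CREBBP (0.27) and EP300 (0.15) were higher and HDAC2 (−0.16) and EZH2 (−0.14) lower at adjusted p-values of 0.000101, 0.0262, 0.00532 and 0.00695, with a median of 0.038 over the list. Over 16 alternative settings CREBBP lost its call in 0, EP300 in 6 and HDAC2 and EZH2 in 2 each.

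Genes that process the invariant chain and antigens in endosomes differed in both directions. Of 12 listed, 8 were tested, with 3 lower, 2 higher (CTSD and LGMN) and a median of −0.076. IFI30, a thiol reductase of lysosomes, fell from 115.3 to 92.9 CPM (log2 fold change −0.31, SE 0.049, adjusted p = 4.19e-05). SPPL2A, the protease that clears the N-terminal stub of CD74, fell by 0.19 (SE 0.043, adjusted p = 0.00299). CTSS, the protease that trims CD74 in its later steps, fell by 0.25 (SE 0.084, adjusted p = 0.0456), a call lost in 10 of 16 alternative settings. CTSD rose by 0.22 (SE 0.050, adjusted p = 0.00253). LGMN, which had 36, 23 and 17 counts in shCtrl and 59, 81 and 61 in shmiR155HG libraries, passed the filter only through the shmiR155HG libraries, where it was high, so its call is no independent evidence of a difference. That call was lost in 3 of 15 alternative settings. MARCHF1 and MARCHF8, ubiquitin ligases that remove class II from the surface, had log2 fold changes of −0.073 and 0.13 (adjusted p = 0.813 and 0.751).

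Among receptors of class II and partners of CD74, 4 of 6 listed genes were tested, with 2 higher, 0 lower and a median of 0.060. MIF, the ligand of CD74, rose by 0.13 (SE 0.038, adjusted p = 0.0205) and CD44, its signalling partner, by 0.14 (SE 0.034, adjusted p = 0.00367). The call of MIF was lost in 3 and that of CD44 in 1 of 16 alternative settings. LAG3, an inhibitory receptor for class II, was at 20.3 and 17.8 CPM in shCtrl and shmiR155HG cells (log2 fold change −0.19, SE 0.10, adjusted p = 0.235), and CXCR4 was at 93.1 and 92.4 CPM. Of the 7 activation markers listed, 6 were tested, 2 were lower (CD38, log2 fold change −0.96, SE 0.071, and ICOS, −0.36, SE 0.12, at adjusted p-values of 8.39e-11 and 0.0346) and 0 higher, with a median of −0.17. The call of ICOS was lost in 4 of 16 alternative settings.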

How the data were processed

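Poly(A) RNA was sequenced in paired reads. The deposited values are raw gene counts: the authors used HISAT2 (hg38) for alignment and StringTie, with its count script, for the gene table. The annotation release and strand setting are not given in the sources used here. Columns were matched to samples by title (0 left unmapped). Genes with over 1 CPM in at least 2 libraries (12263) were tested with the quasi-likelihood test of edgeR 4.0.16 (R 4.3.3, TMM scaling, Benjamini-Hochberg adjustment over all genes, called at 0.05), after a check on simulated counts in which 65.3% of genes changed by 0.5 on the log2 scale and 87.9% of those changed by 1 were recovered. The changed genes of that check were drawn from all genes tested, so its shares do not give the recovery at the low counts of most members. CPM use TMM-scaled totals, and 1 count was worth 0.0256 to 0.0299 CPM. Lengths and positions came from GENCODE release 44, found for 36366 genes.

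The 10 genes and all gene lists were chosen with earlier results of these data known. Named were all members, all promoter factors and the called genes of each list, with other listed genes as examples. Some listed genes are counted but not reported here by name. Ratios with HLA-DRA and its nearest profiles could not be computed from counts of 0, and the ratio of CD74 to CIITA, chosen after the values were seen, is not described. Alternatives were DESeq2 1.42.0, limma-voom (limma 3.58.1), the exact test with the thresholds of the study, other scalings and filters, each library left out, a replicate block and, added after seeing the data, HLA-DRB1 and HLA-DRB5 summed. Replicates share numbers only: deviations of same-numbered libraries correlated at −0.018, 0.00098 and 0.0035, so no pairing was used.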

Additional observations from a re-analysis of the deposited data

How the results depend on the processing

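The replicate block left CD74 as the 1 class II gene called (log2 fold change −1.03, adjusted p = 0.0484) and 0 higher, with 909 genes lower and 829 higher over the whole table. With one library left out at a time, 0 to 1 class II genes were called lower, and 674 to 917 genes of the table were lower and 580 to 891 higher. With a minimum mean of 5 CPM, 0 class II genes were called lower because CD74 falls below that filter, and the exact test with the study's thresholds called 467 genes lower and 552 higher. Over all alternatives CD74 kept its direction, at adjusted p-values of 0.0229 to 0.174. Changes of sign occurred only among uncalled genes with one library left out: CIITA ranged from −0.0084 to 0.044, HLA-DPB1 from −0.23 to 0.17, HLA-DMA from −0.083 to 0.30, HLA-DQB1 from −0.083 to 0.037, NFYB from −0.015 to 0.13, CREB1 from −0.0041 to 0.11 and RFXANK from −0.12 to 0.0069. Beyond those library effects the cause was not tested. Of 637 values of 40 other listed genes, 566 kept their side of the threshold, 68 lost a call and 3 changed sign. Apart from CIITA, the class II genes rest on low counts, and with 3 libraries per group differences within the intervals given could not be resolved. With all counts halved and rounded, the SE was 0.330 in place of 0.335 for HLA-DRB1 and 0.335 in place of 0.341 for HLA-DPB1. Halving rescales the counts and adds no sampling noise, so these SE values do not show the precision at a lower depth.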

Other observations

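PAX5, a transcription factor that defines the B cell lineage, was at 243.7 CPM in shCtrl and 341.1 CPM in shmiR155HG cells (log2 fold change 0.49, SE 0.042, adjusted p = 1.70e-09 by edgeR), with no overlap between the groups, while MS4A1 was at group means of 0.0428 CPM or lower. ITGAX, the CD11c integrin chain, went from 131.7 to 101.5 CPM (log2 fold change −0.38, SE 0.050, adjusted p = 3.99e-06).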
